A study of Mus musculus with 9 samples.

Results

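The subject here is a group of 10 leukocyte adhesion genes in mouse basophils, taken by symbol from a count table of 35673 gene symbols: the integrin subunit genes Itga2, Itga4, Itgal, Itgam, Itgax, Itgb1, Itgb2 and Itgb7, the integrin ligand gene Icam1, and Selplg, which encodes the selectin ligand PSGL-1. All 10 were in the table and all 10 passed the filter on low counts. Integrins are pairs of an alpha and a beta chain that hold a leukocyte to other cells and to matrix. Itgb2 encodes the beta chain shared by LFA-1 (with Itgal), Mac-1 (with Itgam) and p150,95 (with Itgax), and ICAM-1 is a ligand of LFA-1 and Mac-1. Itgb1 and Itgb7 each pair with the product of Itga4, giving receptors for VCAM-1 and MAdCAM-1, and Itgb1 also pairs with the product of Itga2, the collagen receptor chain CD49b by which mouse basophils and NK cells are commonly sorted. PSGL-1 carries sugars through which selectins slow rolling leukocytes on the vessel wall, ahead of integrin-mediated arrest.

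The cells were bone marrow-derived basophils of wild-type C57BL/6J mice. Marrow was cultured with interleukin-3 (IL-3) at 0.3 ng/mL over 7 days, and CD49b-bearing cells were then pulled out with the DX5 antibody on magnetic particles, so every group shares that culture and that selection. In each library 10000 cells had been held for 4 hours. Difamilast libraries were given both IL-3 (10 ng/mL) and IL-33 (10 ng/mL), together with 3 µM difamilast, an inhibitor of phosphodiesterase 4, the enzyme family that breaks down cAMP in leukocytes. Stimulated libraries had the same cytokines with DMSO, the vehicle, and resting libraries had PBS with DMSO. Each group had 3 libraries. Difamilast without cytokines was not analysed here. Whether replicates were separate cultures or animals is not in the labels; p-values here therefore measure the spread between these samples only, which may be technical.

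Library totals were 24812305 to 30299575 counts in difamilast, 11798711 to 38098584 in stimulated and 6261446 to 14795353 in resting libraries, and the members had 123 to 11869 counts per library. Levels are given as CPM, counts scaled to a common library total with TMM factors. These factors were 0.851 to 0.916 in difamilast, 0.871 to 0.892 in stimulated and 1.23 to 1.32 in resting libraries. The scaling thus differed between resting and cytokine-treated libraries, and values against resting cells rest on it. Resting replicate 1 stood apart for these genes: it was the highest of the 3 resting libraries for all 10 members, against 47.5% of the 8865 genes averaging at least 10 CPM, so results against resting cells are also given without it where they change. The proteases that define mouse basophils were abundant, with Mcpt8 at 2802 ± 429 CPM in difamilast, 3455 ± 229 in stimulated and 1434 ± 415 in resting libraries (SD, n = 3 each), and Prss34 at 2193 ± 219, 1987 ± 101 and 1529 ± 368 CPM. RNA of genes listed as markers of other cells was also present. The summed CPM of 12 monocyte and macrophage markers was 3634 to 3920 in difamilast, 3833 to 3979 in stimulated and 5020 to 6036 in resting libraries, that of 10 dendritic cell markers was 1877 to 1997, 1694 to 1799 and 1529 to 1935, and that of 13 NK and T cell markers was 34.4 to 38.0, 34.0 to 39.7 and 26.4 to 40.1. Levels differed widely within these lists, so a sum can rest on few genes. Among the monocyte and macrophage markers, Lyz2 averaged 2621 CPM in difamilast, 2736 in stimulated and 3957 in resting libraries. Among the dendritic cell markers, Cd74 averaged 1698, 1517 and 1454 CPM in that order, and Flt3 1.51, 1.20 and 1.22 CPM. The NK receptor gene Klra8 had no count in 8 of the 9 libraries, while Gzma averaged 13.8 CPM in difamilast, 14.9 in stimulated and 12.8 in resting libraries. In bulk RNA, fewer cells of a type and less RNA per cell cannot be told apart.

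With IL-3 and IL-33, Icam1 and Itgb1 rose while Itga2, Itga4, Itgal, Itgb7 and Selplg fell. Between difamilast and stimulated cells Icam1, lower with difamilast, was the only member called in the main fit. In stimulated against resting cells, 7 of 10 members were called (2 higher and 5 lower), where 31.7% of all 21341 tested genes (15.3% higher and 16.4% lower) were called by edgeR's quasi-likelihood test at a Benjamini-Hochberg adjusted p of 0.05 over all tested genes. In difamilast against stimulated cells 1 of 10 was called, lower, beside 3.44% of all tested genes (2.21% higher and 1.24% lower). In difamilast against resting cells 6 of 10 were called, 2 higher and 4 lower, beside 32.8% of all tested genes (16.4% higher and 16.4% lower). The median log2 fold change of the members was -0.33, 0.07 and -0.32 in those comparisons, against 0.06, -0.00 and 0.01 over all tested genes. Replicates of the compared groups did not overlap in 8, 4 and 6 members, where 43.7%, 24.8% and 42.9% of all tested genes had no overlap. Without resting replicate 1, the members called in the same order were 9 (4 higher, 5 lower), 2 (both lower) and 7 (3 higher, 4 lower). Beside them 29.2%, 7.58% and 32.6% of all tested genes were called. The median log2 fold change of the members was then -0.24, 0.07 and -0.09. Any pair of these comparisons has a group of libraries in common, so they are not independent of each other.

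**Figure D1:**
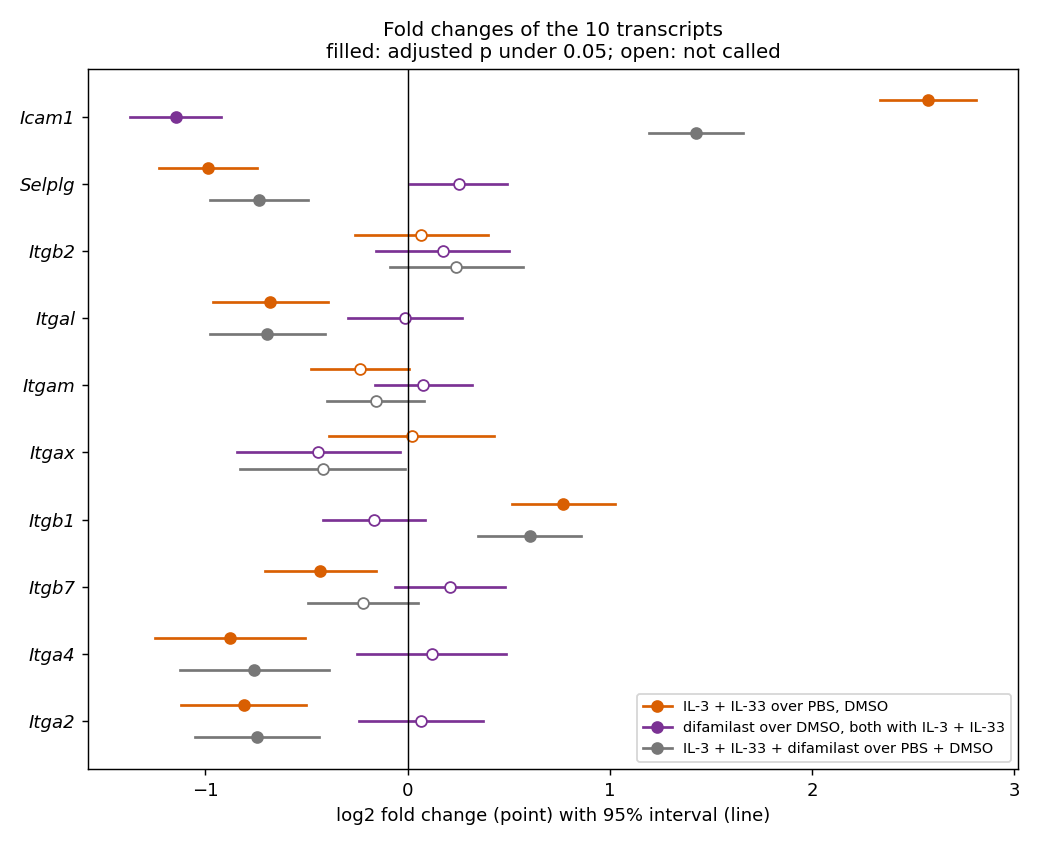
Log2 fold change (x axis) of each of the 10 members (y axis) in the 3 comparisons, with bars for the 95% confidence interval of the fit of 9 libraries and filled points for genes called at an adjusted p of 0.05. Icam1 stands at 2.57 in stimulated over resting cells and at -1.15 in difamilast over stimulated cells, and the other 9 members have intervals between -0.85 and 0.50 in difamilast over stimulated cells.

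Because Icam1 was the member with the greatest change in either direction, its promoter is shown with that of Itgb1, the other gene that rose. Windows of 250 bases before to 50 after the RefSeq gene start (GRCm38.p6) were at hand for 7 of the 10 members: Icam1, Itga2, Itga4, Itgam, Itgax, Itgb1 and Itgb7. The windows printed are on the plus strand and read 5′ to 3′, Icam1 at chr9:21015690-21015989 and Itgb1 at chr8:128685404-128685703. Capitals in the first mark letters matching the NF-kB type GGAAATTCC and the STAT type TTCNNNGAA, and the second holds no match to any of the motifs searched.
Icam1: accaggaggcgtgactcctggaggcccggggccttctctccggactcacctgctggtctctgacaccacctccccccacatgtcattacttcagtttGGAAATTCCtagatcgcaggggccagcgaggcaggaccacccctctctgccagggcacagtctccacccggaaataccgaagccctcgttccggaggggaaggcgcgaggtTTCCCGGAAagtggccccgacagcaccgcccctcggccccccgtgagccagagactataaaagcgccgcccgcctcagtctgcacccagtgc
Itgb1: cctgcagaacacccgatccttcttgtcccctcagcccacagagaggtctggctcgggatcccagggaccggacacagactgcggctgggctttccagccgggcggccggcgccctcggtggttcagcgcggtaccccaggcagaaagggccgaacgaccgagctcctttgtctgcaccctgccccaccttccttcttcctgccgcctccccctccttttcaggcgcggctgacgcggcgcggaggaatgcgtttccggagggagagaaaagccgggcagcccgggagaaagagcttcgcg

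The letters GGAAATTCC begin 153 bases before the Icam1 start, and TTCCCGGAA begins 42 bases before it. Searched on both strands, GGAAATTCC was found in 104 of 32851 RefSeq promoter windows of that length (0.317%) and TTCNNNGAA in 2726 (8.30%). GGAAATTCC has no free letter, unlike TTCNNNGAA, so these percentages do not compare. Other letters of the NF-kB type were not searched, in these windows or in the rest. The cAMP response element TGACGTCA, found in 588 windows (1.79%), had no match in the windows of these 7 members. The AP-1 type TGANTCA, found in 2565 windows (7.81%), matched in Itgax alone among them, as TGAGTCA on both strands 56 bases before the start. TGACGTCA does not itself contain a TGANTCA match, so those counts are separate. The windows of Itga2, Itga4, Itgam, Itgb1 and Itgb7 had no match to any of the 4 motifs, which says only that these letters are not in those windows. GC content was 64.7% in the Icam1 window and 67.3% in that of Itgb1.

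Icam1 (chromosome 9, 21015985 to 21028817, plus strand, in the GENCODE vM21 annotation of GRCm38) encodes the adhesion molecule to which LFA-1 and Mac-1 bind. Its level was 152, 152 and 176 CPM in difamilast libraries, 363, 352 and 348 CPM in stimulated libraries, and 65.7, 53.8 and 59.1 CPM in resting libraries. The 3 groups lay apart, with the difamilast libraries between the others. In counts these were 4211, 4157 and 3714 in difamilast, 3811, 11869 and 10730 in stimulated, and 939, 978 and 467 in resting libraries. Icam1 was 5.95-fold higher in stimulated than in resting cells, 2.57 ± 0.11 on the log2 scale (SE; adjusted p = 1.67e-10). It was 2.21-fold lower in difamilast than in stimulated cells, or -1.15 ± 0.11 on that scale (adjusted p = 9.21e-06). Difamilast libraries remained 2.69-fold above resting ones, at 1.43 ± 0.11 on the log2 scale (adjusted p = 7.87e-08). These calls held in each of the 17 alternatives run, with adjusted p-values of at most 1.82e-08, 0.000296 and 5.48e-06 in the same order. An antisense gene, Gm47079, shares 511 exonic bases with Icam1 and had 25 to 204 counts per library, at most 5.35% of the Icam1 count. Use of strand in the counting was not given, so that part of the reads cannot be assigned.

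**Figure D2:**
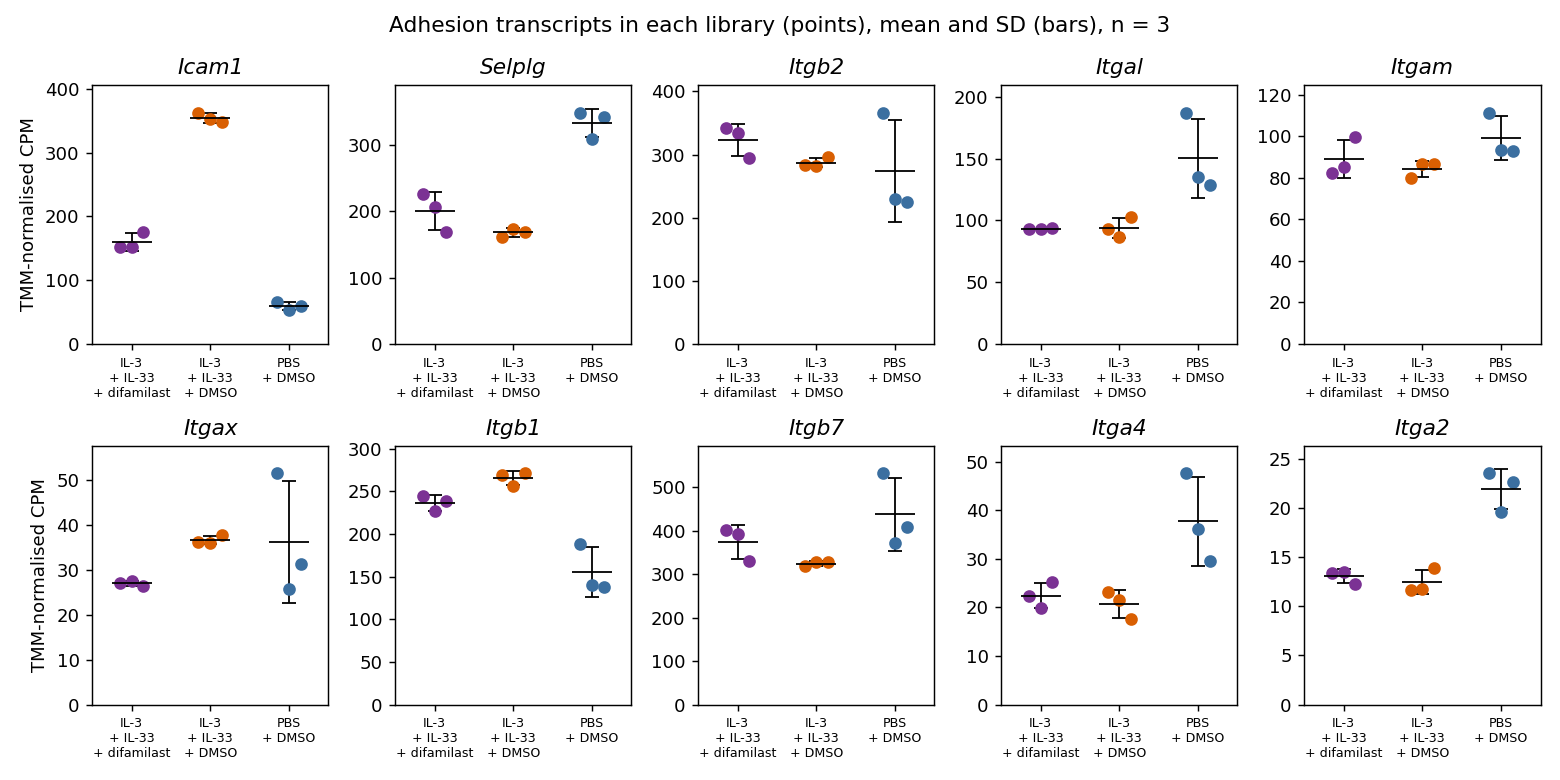
CPM after TMM scaling (y axis, from 0, a scale per panel) of each of the 10 members in difamilast, stimulated and resting libraries (x axis), with points for libraries and a bar with error bar for mean and SD (n = 3). Icam1 averaged 160 CPM in difamilast, 354 CPM in stimulated and 59.5 CPM in resting libraries, while resting replicate 1 was the highest resting point in all 10 panels.

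Of the LFA-1, Mac-1 and p150,95 chains, only the alpha chain gene Itgal passed the test in any of the 3 comparisons, and the beta chain gene shared by these receptors did not. Itgb2 (chromosome 10, 77530252 to 77565708, plus strand) had 342, 334 and 295 CPM in difamilast libraries, 283, 282 and 295 CPM in stimulated libraries, and 366, 229.5 and 226 CPM in resting libraries. Resting replicate 1 lay above all other libraries, and the other resting libraries lay below all of them. The log2 fold change of Itgb2 was 0.17 ± 0.15 for difamilast over stimulated (SE; adjusted p = 0.683), 0.07 ± 0.15 for stimulated over resting (0.781) and 0.24 ± 0.15 for difamilast over resting (0.257). Without resting replicate 1, Itgb2 was called higher in stimulated than in resting cells (0.30, adjusted p = 0.00865) and higher in difamilast than in resting cells (0.48, adjusted p = 0.000194). Its call against resting cells thus depended on that library.

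Itgal (chromosome 7, 127296260 to 127335138, plus strand), the alpha chain of LFA-1, had 93.0, 92.9 and 93.5 CPM in difamilast libraries, 92.7, 86.5 and 103 CPM in stimulated libraries, and 187, 135 and 129 CPM in resting libraries. Resting libraries lay above all 6 cytokine-treated ones, which overlapped. It was 1.60-fold lower in stimulated than in resting cells (log2 -0.68 ± 0.13, adjusted p = 0.00108) and 1.62-fold lower in difamilast than in resting cells (-0.69 ± 0.13, adjusted p = 0.000917). Difamilast and stimulated cells differed by -0.01 on the log2 scale, with a 95% interval of -0.30 to 0.27. Leaving out resting replicate 1, the falls were -0.52 and -0.54, both still called (adjusted p = 0.000191 and 0.000143).

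Itgam (chromosome 7, 128062640 to 128118491, plus strand), the alpha chain of Mac-1 and a common myeloid surface marker, had 82.4, 85.1 and 99.6 CPM in difamilast libraries, 79.8, 86.5 and 86.6 CPM in stimulated libraries, and 111.5, 93.5 and 92.8 CPM in resting libraries. Resting libraries lay above stimulated ones, while difamilast libraries overlapped both groups. No comparison passed, with log2 fold changes of 0.08 ± 0.11 for difamilast over stimulated (adjusted p = 0.826), -0.24 ± 0.11 for stimulated over resting (0.13) and -0.16 ± 0.11 for difamilast over resting (0.313), and no alternative called it. A readthrough gene on its strand, Gm49368, shares 3450 exonic bases with Itgam and had 112 to 488 counts, up to 18.8% of the Itgam count, so reads may be split between these genes.

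Itgax (chromosome 7, 128129547 to 128150657, plus strand), the alpha chain CD11c of p150,95, had 27.2, 27.5 and 26.5 CPM in difamilast libraries, 36.3, 36.1 and 37.7 CPM in stimulated libraries, and 51.5, 25.6 and 31.3 CPM in resting libraries. Difamilast libraries lay below stimulated ones with a narrow spread in each, and resting libraries spread across both. The log2 fold change of difamilast over stimulated was -0.44 ± 0.19 (95% interval -0.85 to -0.04), and its adjusted p was 0.291, so it was not called. That fit takes its spread from all 9 libraries, the resting ones included. In a fit of the difamilast and stimulated libraries alone the value was -0.44 with an adjusted p of 0.00793, and without resting replicate 1 it was -0.44 with an adjusted p of 0.0109. Stimulated over resting stood at 0.02 ± 0.19 (0.951), and without resting replicate 1 at 0.35 (0.0344). Difamilast over resting stood at -0.42 ± 0.19 (0.109). Without resting replicate 2, and with no filter on low counts, that difference was called, at -0.67 (0.00885) and -0.42 (0.0291).

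The mix of these 3 alpha chain genes was also set out as shares of their summed level, per kilobase of exon (the union of annotated exons), which needs no scaling between libraries. Itgal made up 39.1%, 38.4% and 36.0% in difamilast libraries, 37.6%, 34.7% and 38.4% in stimulated libraries, and 46.4%, 46.2% and 44.0% in resting libraries. Itgam made up 47.1% ± 2.60, 43.3% ± 1.80 and 39.8% ± 3.16 (SD, n = 3) in the same group order. Itgax made up 15.6%, 15.5% and 13.9% in difamilast libraries, 20.1%, 19.8% and 19.3% in stimulated libraries, and 14.7% ± 2.73 over the resting libraries. The Itgal share was thus lower in both cytokine-treated groups than in resting cells, with differences of -8.62 percentage points for stimulated minus resting and -7.72 for difamilast minus resting, and no overlap. The Itgax share differed by -4.70 points for difamilast minus stimulated, again with no overlap. The Itgam share differed by 3.56 points for stimulated minus resting and 7.36 for difamilast minus resting, and the Itgax share by 5.05 points for stimulated minus resting, without overlap. In two-sided exact permutation tests of 3 against 3 libraries each of these differences had p = 0.1, the smallest that this design can give (0.15 adjusted over 9 tests), so none could pass 0.05. Per kilobase, the Itgb2 level was 2.44 to 3.09 times the sum of the 3 alpha chain genes in difamilast, 2.37 to 2.47 times in stimulated and 1.66 to 1.95 times in resting libraries. With the longest annotated transcript these were 2.17 to 2.73, 2.09 to 2.18 and 1.45 to 1.70. The shares rest on the division by length as well. In CPM not divided by length, Itgal averaged 93.1 in difamilast, 94.0 in stimulated and 150 in resting libraries. Itgam averaged 89.0, 84.3 and 99.3 CPM in that order.

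**Figure D3:**
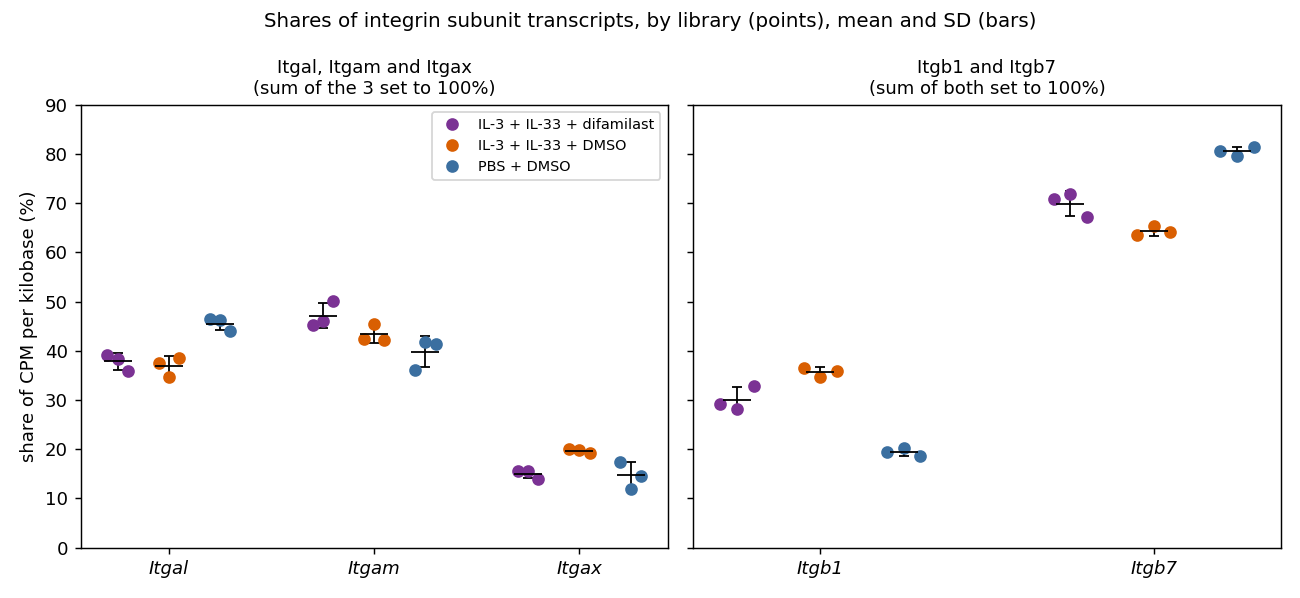
Percent (y axis, from 0) of the summed level per kilobase of Itgal, Itgam and Itgax taken by each gene, and of the summed level of Itgb1 and Itgb7 taken by each, in difamilast, stimulated and resting libraries (x axis), with points for libraries and bars for mean and SD (n = 3). The Itgal share averages 37.8%, 36.9% and 45.5%, and the Itgb1 share 30.1%, 35.7% and 19.5%, in difamilast, stimulated and resting libraries.

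The beta chain genes Itgb1 and Itgb7, whose products share the alpha 4 chain, moved in opposite directions with stimulation. Itgb1 (chromosome 8, 128685654 to 128733200, plus strand) had 245, 226 and 238 CPM in difamilast libraries, 269, 256 and 271 CPM in stimulated libraries, and 189, 140 and 138 CPM in resting libraries. The 3 groups did not overlap, with stimulated libraries highest and difamilast libraries just below them. Itgb1 was 1.70-fold higher in stimulated than in resting cells (log2 0.77 ± 0.12, adjusted p = 0.000151) and 1.52-fold higher in difamilast than in resting cells (0.60 ± 0.12, adjusted p = 0.00119). Leaving out resting replicate 1, these rises were 0.90 (adjusted p = 9.78e-08) and 0.74 (1.09e-06). Difamilast over stimulated was -0.17 ± 0.12 (95% interval -0.42 to 0.09, adjusted p = 0.584), not called.

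Itgb7 (chromosome 15, 102215995 to 102231944, minus strand), the beta chain of the gut-homing receptor for MAdCAM-1, had 401, 392 and 330.0 CPM in difamilast libraries, 318, 327 and 328 CPM in stimulated libraries, and 531, 371 and 408 CPM in resting libraries. Stimulated libraries lay below both other groups, which overlapped each other. It was 1.35-fold lower in stimulated than in resting cells (log2 -0.43 ± 0.13, adjusted p = 0.0181), a call that held in 15 of 17 alternatives and was lost without stimulated replicate 2 (adjusted p = 0.0581) or 3 (0.055). Over all alternatives that adjusted p ran between 0.00155 and 0.0581. Difamilast over stimulated was 0.21 ± 0.13 (adjusted p = 0.498) and difamilast over resting -0.22 ± 0.13 (0.205). Without resting replicate 2 difamilast over resting was called at -0.37 (0.0456), and without resting replicate 1 it stood at -0.09 (0.486).

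Itga4 (chromosome 2, 79255426 to 79333123, plus strand), the alpha chain that Itgb1 and Itgb7 products can both bind, had 22.4, 19.8 and 25.1 CPM in difamilast libraries, 23.2, 21.5 and 17.5 CPM in stimulated libraries, and 47.6, 36.2 and 29.5 CPM in resting libraries. Resting libraries lay above all cytokine-treated ones, and difamilast and stimulated libraries overlapped. Itga4 was 1.84-fold lower in stimulated than in resting cells (log2 -0.88 ± 0.17, adjusted p = 0.00121) and 1.69-fold lower in difamilast than in resting cells (-0.76 ± 0.17, adjusted p = 0.00335). With that group's replicate 1 left out, these were -0.72 (0.00131) and -0.59 (0.00509). Difamilast over stimulated was 0.12, with a 95% interval of -0.25 to 0.49. The antisense gene Cerkl shares 1124 exonic bases with Itga4 and had 25 to 139 counts, up to 19.2% of the Itga4 count, which cannot be separated without strand.

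As a share of the summed level per kilobase of Itgb1 and Itgb7, a measure chosen after the values had been seen, Itgb1 made up 29.3%, 28.1% and 32.9% in difamilast libraries, 36.5%, 34.7% and 35.9% in stimulated libraries, and 19.4%, 20.3% and 18.7% in resting libraries. None of the groups overlapped, and difamilast libraries lay between the others. The differences were 16.2 points for stimulated minus resting, -5.61 for difamilast minus stimulated and 10.6 for difamilast minus resting. Each had p = 0.1 in a two-sided exact permutation test (0.1 adjusted over 3), the smallest possible here. Per kilobase, Itgb7 was 64.4 to 93.6 times the sum of Itga4 and Itgae, the other alpha chain that pairs with beta 7, in difamilast, 60.7 to 82.6 times in stimulated and 43.2 to 66.3 times in resting libraries. These ratios rest on the division by length and on the length used. With the longest annotated transcript they were 46.7 to 68.3, 44.7 to 60.9 and 32.1 to 48.3. In CPM not divided by length, Itgb7 averaged 375 in difamilast, 324 in stimulated and 437 in resting libraries. Itga4 averaged 22.4, 20.8 and 37.7 CPM in that order, and Itgae 0.321, 0.847 and 1.59 CPM. Coverage along the transcripts cannot be seen in counts per gene.

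Itga2 (chromosome 13, 114833081 to 114932100, minus strand) encodes CD49b, the protein named for the selection of these cells. Its RNA level was 13.4, 13.5 and 12.2 CPM in difamilast libraries, 11.7, 11.8 and 13.8 CPM in stimulated libraries, and 23.5, 19.6 and 22.7 CPM in resting libraries. Every resting library lay above every cytokine-treated one, and difamilast and stimulated libraries overlapped. Itga2 was 1.75-fold lower in stimulated than in resting cells (log2 -0.81 ± 0.15, adjusted p = 0.000529) and 1.67-fold lower in difamilast than in resting cells (-0.74 ± 0.14, adjusted p = 0.00101). With resting replicate 1 left out, both were still called, at -0.78 (adjusted p = 0.000555) and -0.71 (0.0011). Difamilast over stimulated was 0.07 ± 0.14, with a 95% interval of -0.24 to 0.37 (adjusted p = 0.892). The selection had come before the 4 hours of culture, and cell-surface protein was not measured in these files.

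Selplg (chromosome 5, 113818536 to 113832644, minus strand) had 226, 206 and 169 CPM in difamilast libraries, 161.5, 174 and 169 CPM in stimulated libraries, and 349, 309.7 and 342 CPM in resting libraries. Resting libraries lay far above the others, and difamilast and stimulated libraries overlapped through difamilast replicate 3. It was 1.98-fold lower in stimulated than in resting cells (log2 -0.99 ± 0.11, adjusted p = 8.25e-06) and 1.66-fold lower in difamilast than in resting cells (-0.74 ± 0.11, adjusted p = 0.000144). Difamilast over stimulated was 0.25 ± 0.11 (95% interval 0.01 to 0.49), and its adjusted p of 0.316 did not pass. Of the falls among members with stimulation, that of Selplg had the greatest size.

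Monocyte and macrophage markers moved along with the 5 members that fell: 8 of 12 were lower and 1 higher in stimulated than in resting cells, and 8 were lower in difamilast than in resting cells. Between difamilast and stimulated cells none of the 12 was called by edgeR. Megakaryocyte and platelet markers were lower in 5 of 10 with stimulation (2 of 10 without resting replicate 1), with summed levels of 582 to 662 CPM in difamilast, 427 to 619 in stimulated and 879 to 1139 in resting libraries. That list includes the integrin subunit genes Itga2b and Itgb3, which were the 2 genes called without resting replicate 1. The other 8 summed to 213 to 282 CPM in difamilast, 155 to 296 in stimulated and 253 to 293 in resting libraries, which overlapped. Basophil markers went the other way, with 9 of 12 higher in stimulated than in resting cells and summed levels of 14452 to 15215 CPM in difamilast, 13121 to 13767 in stimulated and 7307 to 8470 in resting libraries. With stimulation 75% of the monocyte and macrophage, 50% of the megakaryocyte and platelet and 75% of the basophil markers were called, beside 31.7% of all tested genes. For difamilast over resting, 66.7% of the monocyte and macrophage markers were called, beside 32.8%. The part of these markers in the results against resting cells was not tested.

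Compared per kilobase of exon, Itgb7 was the highest of the 10 members in each group, at 135 ± 14.0 CPM per kilobase in difamilast, 117 ± 2.02 in stimulated and 158 ± 30.2 in resting libraries (SD, n = 3). Itgb2 came next, at 106 ± 8.31, 94.0 ± 2.39 and 89.7 ± 26.3, overlapping in resting cells with Selplg at 78.1 ± 4.90. Icam1 had the third level in stimulated cells, at 81.3 ± 1.72, above Itgb1 at 65.0 ± 2.02. In resting cells Icam1 stood at 13.7 ± 1.36, below Itgal and Itgam, which overlapped each other at 22.9 and 19.8. In difamilast cells Icam1, at 36.7 ± 3.20, overlapped with Selplg, at 46.9 ± 6.84. Itgax was below these in all groups, at 5.63, 7.64 and 7.52 CPM per kilobase in difamilast, stimulated and resting libraries. The alpha chain genes Itga2 and Itga4 were lowest throughout and overlapped in each group, at 1.83 and 1.61 in difamilast, 1.74 and 1.48 in stimulated, and 3.07 and 2.70 in resting libraries. The order rests on the division by length and on the length used. In CPM not divided by length, Icam1 averaged 354 and Itgb7 324 in stimulated libraries. With the longest annotated transcript in place of all exons, Icam1 was the highest member in stimulated cells, at 140 CPM per kilobase.

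**Figure D4:**
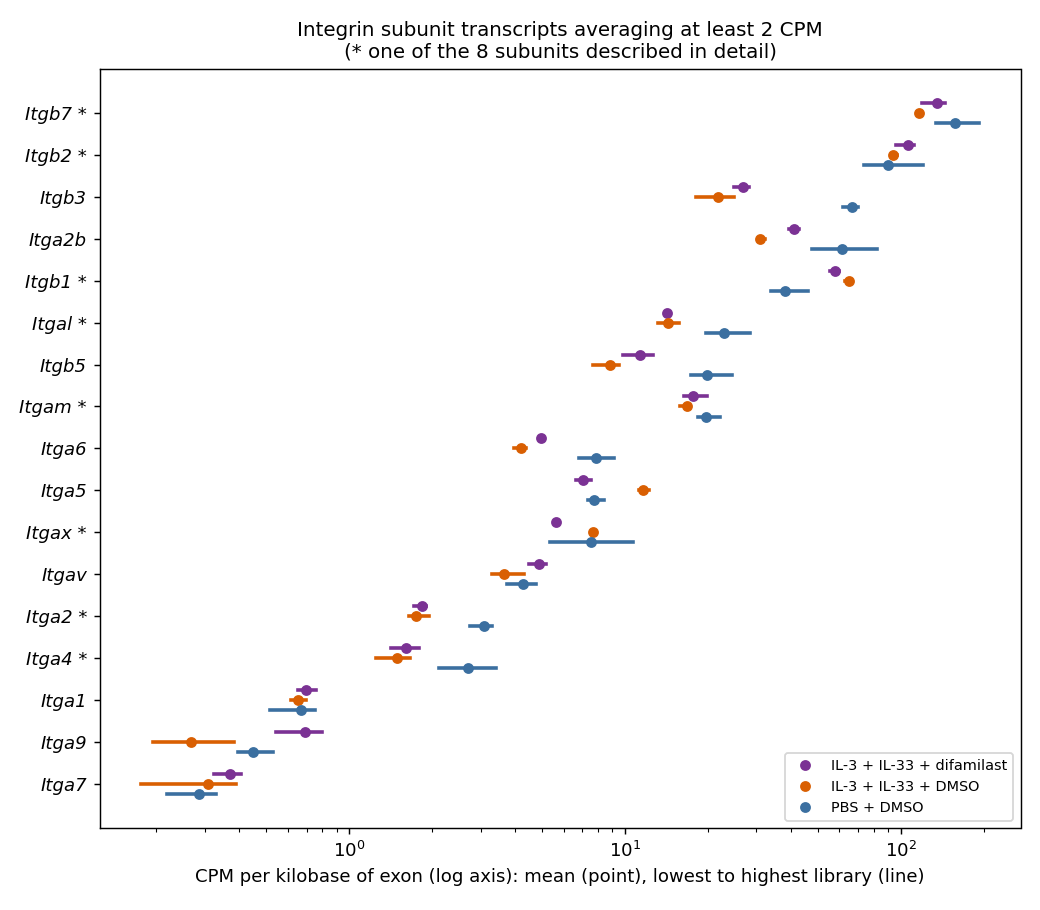
Mean CPM per kilobase of exon (log axis) of the 17 integrin subunit genes averaging at least 2 CPM, 8 of them members, in difamilast, stimulated and resting libraries, with points for the mean (n = 3) and lines for the lowest to the highest library. Itgb7 and Itgb2 lead, Itgb3 (26.8, 21.8 and 66.7 in difamilast, stimulated and resting libraries) and Itga2b (41.0, 31.0 and 61.3) stand among the members, and Itga2 and Itga4 lie far below the beta chain genes.

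The genes whose log2 CPM followed Icam1 most closely over the 9 libraries, among 7808 genes averaging at least 10 CPM, were P2ry1 (Pearson r = 0.9964), which encodes an ADP receptor, Rab31 (0.9962), a small GTPase of vesicle traffic, and Tmem131 (0.9949). P2ry1 averaged 164 CPM in difamilast, 279 in stimulated and 85.2 in resting libraries. Closest to Itga2 were Zfp740 (0.9897), Klhl5 (0.9891) and Cers5 (0.988), a ceramide synthase gene, and Klhl5 averaged 11.3, 10.8 and 32.3 CPM in the same order. These libraries fall into 3 groups, so such values mostly describe a shared order of the groups.

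Among 17 other integrin subunit genes tested, 1 rose and 5 fell in stimulated against resting cells, with a median log2 fold change of -0.06 beside 0.06 for all tested genes. Called were 35.3% of them, near the 31.7% of all tested genes. The falls included Itgb3, the beta chain of the platelet fibrinogen receptor and of the vitronectin receptor, at 146, 163 and 166 CPM in difamilast, 133, 107 and 147 CPM in stimulated, and 414, 366 and 401 CPM in resting libraries. It was 3.06-fold lower in stimulated than in resting cells (adjusted p = 8.15e-08). Itgb5 was 2.26-fold lower (2.85e-05) and Itga6, a laminin receptor chain, 1.88-fold lower (2.98e-05). In difamilast against resting cells 1 rose and 6 fell (41.2%, beside 32.8% of all tested genes), Itgb3 among the falls at 2.49-fold lower (7.19e-07).

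In difamilast against stimulated cells, 2 of those 17 rose and 1 fell (17.6% called, beside 3.44% of all tested genes). The fall was in Itga5, the alpha chain of the fibronectin receptor that Itgb1 completes, at 37.1, 34.1 and 32.9 CPM in difamilast, 60.3, 55.5 and 56.5 CPM in stimulated, and 41.4, 36.5 and 36.1 CPM in resting libraries. Stimulated libraries lay above all others, and difamilast libraries overlapped with resting ones. Itga5 was 1.65-fold lower in difamilast than in stimulated cells (adjusted p = 0.001), 1.51-fold higher in stimulated than in resting cells (0.000792), and at -0.13 on the log2 scale in difamilast over resting (0.395). The rises were in genes at low levels, Itgb8 at 3.04 ± 0.382 CPM in difamilast and 0.576 ± 0.313 CPM in stimulated libraries (4.79-fold, adjusted p = 0.00792) and Itga9 at 5.33 ± 1.03 and 2.05 ± 0.779 CPM (2.54-fold, 0.00897). The Itgb8 call was lost without stimulated replicate 2 (0.0686) or difamilast replicate 2 (0.0514), and that of Itga9 without stimulated replicate 1 (0.0526) or 3 (0.074) or difamilast replicate 2 (0.0654), and with all libraries thinned to the shallowest total (0.0535). Without resting replicate 1, 5 rose and 1 fell, where 7.58% of all tested genes were called.

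Of 11 tested ligand and counter-receptor genes other than Icam1, 2 rose and 2 fell in stimulated against resting cells, 1 rose and 2 fell in difamilast against stimulated cells, and 4 rose and 2 fell in difamilast against resting cells. In that order 36.4%, 27.3% and 54.5% were called, beside 31.7%, 3.44% and 32.8% of all tested genes. Icam2, also an LFA-1 ligand, had 4.11, 4.39 and 5.31 CPM in difamilast, 4.66, 5.49 and 6.65 CPM in stimulated, and 9.79, 15.1 and 14.4 CPM in resting libraries. It was 2.30-fold lower in stimulated than in resting cells (adjusted p = 0.000397). Icam4, at 0.628 CPM in difamilast, 1.60 CPM in stimulated and 0.847 CPM in resting libraries, was, like Icam1, lower in difamilast than in stimulated cells, 2.63-fold (0.0429), a call lost in 7 alternatives. The gene that rose with difamilast was Thbs1, which encodes the matrix protein thrombospondin-1, at 1521, 1483 and 1420 CPM in difamilast, 269, 269 and 351 CPM in stimulated, and 544, 353 and 320.3 CPM in resting libraries. Difamilast libraries lay above all others. Thbs1 was 4.98-fold higher in difamilast than in stimulated cells (2.24e-06) and 3.63-fold higher than in resting cells (7.41e-07), called in 17 of 17 alternatives in both comparisons. Cd47, which encodes an integrin-associated protein, was 2.48-fold higher with stimulation (1.14e-07). Spp1, the integrin ligand osteopontin, was 2.03-fold higher with stimulation (1.52e-06) and 1.32-fold lower in difamilast than in stimulated cells (0.0347), the second of these lost in 9 of 17 alternatives (0.00154 to 0.216).

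Genes that switch integrins on or off, or tie them to actin, mostly fell where they were called against resting cells. Of 33 tested, 3 rose and 14 fell in stimulated against resting cells, and 4 rose and 17 fell in difamilast against resting cells. Called were thus 51.5% and 63.6% of the list. Over all tested genes 31.7% (16.4% lower) and 32.8% (16.4% lower) were called. Rasgrp2, the exchange factor that loads the integrin-activating GTPase Rap1, had 26.7, 26.0 and 26.8 CPM in difamilast, 28.4, 27.2 and 24.9 CPM in stimulated, and 81.9, 60.5 and 67.1 CPM in resting libraries. It was 2.61-fold lower in stimulated than in resting cells (adjusted p = 7.54e-07). Rasa3, which encodes a GTPase-activating protein that turns Rap1 off, was 2.97-fold lower (4.73e-07), so genes of opposite action on Rap1 both fell. Vasp, an actin regulator, was 1.79-fold higher (8.96e-06). Between difamilast and stimulated cells 1 rose and 1 fell (6.06% of the list, beside 3.44% of all tested genes). Cyth1, a partner of the beta 2 chain, was 1.58-fold higher (0.0224), a call lost without any 1 of the 3 stimulated libraries or difamilast replicates 1 or 2. Fyb, the adaptor ADAP, was 1.69-fold lower (0.00334). Without resting replicate 1, 1 rose and 4 fell, where 7.58% of all tested genes were called.

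Of 15 tested selectin genes and genes that build selectin ligands, 4 rose and 6 fell in stimulated against resting cells, and 5 rose and 5 fell in difamilast against resting cells. Called were 66.7% each time, beside 31.7% and 32.8% of all tested genes. Fucosylation and branching are among the steps by which PSGL-1 comes to bind selectins. A gene of each of these steps was lower in stimulated than in resting cells, as Selplg was. Fut7, the fucosyltransferase, had 2.74, 4.06 and 4.51 CPM in difamilast, 7.71, 6.59 and 5.61 CPM in stimulated, and 31.5, 22.1 and 27.7 CPM in resting libraries. It was 4.13-fold lower in stimulated than in resting cells (adjusted p = 1.88e-06) and 7.21-fold lower in difamilast than in resting cells (6.85e-08). Difamilast libraries all lay below stimulated ones, at -0.80 on the log2 scale, which was not called (0.056). Gcnt1, the branching enzyme, was 2.04-fold lower in stimulated than in resting cells (4.87e-07). By contrast St3gal4, a sialyltransferase of the same pathway, was 7.59-fold higher (1.21e-07), and Cd44, another selectin-binding protein, 2.24-fold higher (1.9e-07). Tpst2 and B4galt1 of this list also lay higher, at 103 ± 7.47 and 257 ± 17.4 CPM in stimulated and 56.5 ± 1.60 and 192 ± 13.8 CPM in resting libraries (SD).

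In difamilast against stimulated cells 2 of those 15 rose and none fell by edgeR at this threshold (13.3% called, beside 3.44% of all tested genes). Slc35b2, which carries the sulfate donor into the Golgi, had 42.9, 47.9 and 44.4 CPM in difamilast, 24.5, 24.3 and 33.0 CPM in stimulated, and 42.9, 32.3 and 30.4 CPM in resting libraries. Difamilast libraries lay above stimulated ones, and resting libraries overlapped with stimulated ones, with resting replicate 1 just under the lowest difamilast library. It was 1.65-fold higher in difamilast than in stimulated cells (adjusted p = 0.0144), a call lost without stimulated replicate 1 or 2 or difamilast replicate 2. Without resting replicate 1, 3 rose and 3 fell, where 7.58% of all tested genes were called.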

How the data were processed

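The authors deposited raw read counts per gene for 9 bulk RNA-seq libraries, made by the TAS-Seq amplification workflow per the labels' protocols. No molecular identifiers are mentioned, so reads copied in amplification may be counted more than once. Bowtie2 2.4.5, cutadapt 4.1 and the build GRCm38 appear in the submitters' processing notes without a stated role. How reads were counted, with which annotation and strand setting, is not given in the sources used here. The 10 members and all lists were chosen with earlier results of these data known. Groups came from sample titles.

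Groups were compared in R 4.3.3 by the quasi-likelihood test of edgeR 4.0.16 (with statmod 1.5.0), using TMM scaling, filterByExpr (minimum count 10, minimum total 15), robust dispersion and 1 fit of all 9 libraries (6 residual degrees of freedom). P-values were adjusted over 21341 tested genes, and genes were called at 0.05. Lengths came from GENCODE vM21, which matched 34336 symbols and gave lengths for 96.8% of tested genes. Replicate pairs differed by more than sampling noise (chi-square per degree of freedom 4.28 to 43.3). The steps were tested on simulated counts.

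Alternatives were DESeq2 1.42.0, limma-voom (limma 3.58.1), RLE scaling, no filter, a fit of the 2 groups compared, a replicate block, removal of a length trend (lowess span 0.3), thinning to the shallowest library, and each library left out. For shares, the longest transcript length and counts not divided by length were tried, and single libraries were left out. Named list genes are up to 3 called genes of smallest p per list and comparison. Itga5, Tpst2 and B4galt1 with stimulation, and the markers Klra8, Gzma, Lyz2, Cd74 and Flt3, were named after their values were seen. A gene that this rule names is not reported here. The marker lists cover basophils, mast cells, NK and T cells, monocytes and macrophages, dendritic cells, neutrophils, and megakaryocytes and platelets.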

Additional observations from a re-analysis of the deposited data

How the results depend on the processing

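Icam1 kept its 3 calls under all 17 alternatives. The number of genes called between difamilast and stimulated cells, 735 over all tested genes, was 1115 with DESeq2, 1351 with no filter and 1673 in a fit of those 2 groups, and 347 to 1693 when single libraries were left out. Of the 10 members, 2 were called in the 2-group fit (Icam1 and Itgax), and 1 to 2 with single libraries left out (2 without resting replicate 1). The cause was not tested.

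Same-numbered libraries deviated together by a correlation of -0.0778 to 0.108, and differently numbered ones by -0.147 to 0.172. Such values cannot show whether the numbers pair the samples, which the labels do not say. With a replicate block 6489, 700 and 6652 genes were called for stimulated over resting, difamilast over stimulated and difamilast over resting, and 7, 1 and 6 members.

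Signs that reversed belonged to members not called. For difamilast over stimulated, Itga2 was -0.0472 after thinning, and Itgal was 0.0042 with DESeq2, 0.0034 with RLE scaling, 0.0105 with no filter and 0.0147 after thinning. With single libraries left out, Itgam ran between -0.0107 (without difamilast replicate 3) and 0.14, and Itgal between -0.071 and 0.0569 (without stimulated replicate 3). For stimulated over resting, Itgax was -0.0335 with DESeq2, -0.0292 with RLE scaling, -0.0061 with no filter and -0.0108 after thinning. With single libraries left out Itgax ran between -0.23 and 0.35, below 0 without resting replicate 2 or 3 or stimulated replicate 1, and Itgb2 between -0.0892 and 0.30, below 0 without resting replicate 2 or 3. Depth was lowest in resting replicate 3, where Itga2 and Itga4 had 179 and 233 counts. The lowest Itga2 count, 123, was in stimulated replicate 1.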

Other observations

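The marker lists not described above were as follows. Of 9 tested mast cell markers, 2 rose and 3 fell in stimulated against resting cells, and 2 fell in difamilast against stimulated cells. Their summed levels were 885 to 892 CPM in difamilast, 1215 to 1254 CPM in stimulated and 625 to 888 CPM in resting libraries. Of 10 tested neutrophil markers, 3 rose and 1 fell with stimulation, and 1 fell in difamilast against stimulated cells, with summed levels of 155 to 242 CPM in difamilast, 228 to 261 CPM in stimulated and 173 to 210.1 CPM in resting libraries. Of 9 tested dendritic cell markers, 3 fell with stimulation and 1 rose in difamilast against stimulated cells. Of 10 tested NK and T cell markers, 1 rose in stimulated and in difamilast cells, each against resting cells. That gene was Ncr1, at 3.53 ± 0.364 CPM in difamilast, 2.01 ± 0.337 CPM in stimulated and 0.433 ± 0.181 CPM in resting libraries. With stimulation 55.6% of the mast cell, 40% of the neutrophil, 33.3% of the dendritic cell and 10% of the NK and T cell markers were called, beside 31.7% of all tested genes. For difamilast over stimulated these were 22.2%, 10%, 11.1% and 0%, beside 3.44%. For difamilast over resting 10% of the NK and T cell markers were called, beside 32.8%.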
